A study of Mus musculus with 4 samples.

Results

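Alveolar fibroblasts are the matrix-producing stromal cells of the alveolar wall, where they lie between the capillary endothelium and the alveolar epithelium. They lay down collagens and elastin, part of them store lipid and retinoids, and they supply growth factors to the epithelium and the vessels beside them. Adventitial fibroblasts, by contrast, sit in the sheaths of larger vessels and airways. In single-cell RNA-seq of whole mouse lung, alveolar fibroblasts were chosen by the measured counts of 16 genes, as cells with at least 2 summed UMIs (unique molecular identifiers, each marking 1 captured RNA molecule) of Col1a1, Col1a2 and Col3a1. They also had at least 3 detected genes of the 7 alveolar genes Inmt, Npnt, Ces1d, Tcf21, Limch1, Itga8 and Pdgfra and at most 1 of the 4 adventitial genes Pi16, Ogn, Mmp3 and Dpt. Cells with any UMI of the leukocyte gene Ptprc or the endothelial gene Cdh5 were left out. A total of 76 of 9363 cells (0.812%) met this rule.

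The cells came from 2 libraries labelled WT and 2 labelled ERG CKO, each from 1 mouse lung. WT mice carried ERG fl/fl without Cre, and ERG CKO mice carried CDH5-CreER(T):ERG fl/fl, in which a tamoxifen-inducible Cre is driven by the promoter of an endothelial gene. Mice of both groups received 5 daily injections of 0.5 mg tamoxifen, and lungs were taken 90 days later. With these libraries the study asked whether losing the transcription factor ERG in endothelial cells (ECs) alters the variety of capillary ECs. It also described macrophages, neutrophils and fibroblasts, and the fibroblasts are cells next to the targeted ones. Erg itself was nearly undetected in the fibroblasts: alveolar fibroblasts held 3, 0, 0 and 1 Erg UMIs in WT replicates 1 and 2 and ERG CKO replicates 1 and 2. In ECs, Erg was at 89.998 and 83.6 CPM (UMIs of a gene per 1000000 UMIs of the summed cells) in WT and at 101 and 83.2 CPM in ERG CKO. The Erg count therefore did not separate the groups. Which part of Erg is deleted is not given in the sources used here, so this count is no check of the deletion, and WT and ERG CKO below are the labels of the libraries.

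WT replicates 1 and 2 held 31 and 13 alveolar fibroblasts, and ERG CKO replicates 1 and 2 held 26 and 6. Their summed depth was 136194, 56491, 75787 and 15463 UMIs in the same order, so that 1 UMI was worth 7.34, 17.7, 13.2 and 64.7 CPM. In ERG CKO replicate 2 a single cell gave 66.5% of the UMIs, and all values of that library rest mainly on this cell. No alveolar fibroblast was called a doublet by Scrublet, and none shared its barcode with a cell of another library. Counts of the replicates of each group differed by more than sampling noise (chi-square per degree of freedom of 2.38 in WT and 2.36 in ERG CKO) in these cells. Both replicates numbered 1 carried Xist, at 1032 CPM in WT and 1108 CPM in ERG CKO ECs, and both numbered 2 had none and carried the Y-linked Ddx3y, at 124 and 118 CPM. The spread within each group, on which the p-values rest, is therefore also a difference between a Xist and a Ddx3y library.

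The label was checked against genes that the rule did not use. Of 22 further alveolar fibroblast genes, all had UMIs in the cells, and their summed level was 21720 CPM against 4969 CPM in the 15 adventitial fibroblasts, 5397 CPM in 47 mural cells (pericytes and smooth muscle), 1821 CPM in 3093 ECs and 317 CPM in 1554 T cells. T cells are not stromal cells, and their values are given as a reference for free RNA. They were deeper, with a median of 6169 UMIs against 2313.5 in alveolar fibroblasts. The level that free RNA gives in the members themselves was not measured. The cells are called alveolar fibroblasts on this basis. A list of 14 further adventitial markers summed to 16564 CPM in alveolar and 15374 CPM in adventitial fibroblasts, most of it from Gsn; the 13 others summed to 1687 and 6429 CPM. The 15 adventitial fibroblasts also carried 9 ductal myofibroblast markers at 8282 CPM, against 95.1 CPM in alveolar fibroblasts. All of the levels that set alveolar fibroblasts apart from other cells depend on how the cells were chosen. They are given as a description, with no test.

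The rule genes are given as levels only: they chose the cells, and in 37.5% of the genes tested below the groups did not overlap either, so nothing is read from their order between the groups. Inmt, an indolethylamine methyltransferase, had the highest level, with 6285 and 9736 CPM in the WT libraries and 4829 and 7372 CPM in the ERG CKO libraries, with 2.89 CPM in T cells. Npnt, which encodes the matrix ligand nephronectin, had 2188, 2107, 2481 and 2975 CPM in the same libraries. The groups overlapped in Inmt, while both ERG CKO libraries lay above both WT libraries in Npnt. Pdgfra, the receptor through which platelet-derived growth factor acts on these cells, was at 1498, 1682, 1649 and 1875 CPM, with overlap. Tcf21, a transcription factor of lipid-storing lung fibroblasts, was at 1564, 2319, 752 and 647 CPM, so that both WT libraries lay above both ERG CKO libraries. The carboxylesterase Ces1d was at 742, 797, 884 and 1164 CPM, lower in both WT libraries than in both ERG CKO libraries. Limch1 and the integrin subunit gene Itga8 averaged 1574 and 930 CPM over all the cells. The 3 collagen genes were at 845 CPM for Col1a1, 990 CPM for Col1a2 and 1021 CPM for Col3a1. In adventitial fibroblasts the same 3 genes were at 858, 1340 and 2484 CPM.

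The 4 adventitial genes of the rule did not behave alike. Pi16 had no UMI in the 76 cells, and Mmp3 and Dpt had 1 and 2 UMIs. The rule itself largely sets these low counts, since without its adventitial limit 14 of 141 cells had a UMI of Pi16. Ogn, the gene of the small proteoglycan osteoglycin, was detected in 63 of the 76 cells (82.9%) and stood at 2353 CPM, above the 1581 CPM of the adventitial fibroblasts. In most members Ogn was the 1 adventitial gene that the rule allows: 66 cells had 1 adventitial gene detected and 10 had none.

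The cells near the limits of the rule were of different kinds. Of the members, 34 had all 7 alveolar genes detected, 12 had 6, 9 had 5, 12 had 4 and 9 had 3. The last 9 cells had 969 CPM of Inmt and 346 CPM of Tcf21, against 6642 and 1448 CPM over all members. Just outside, 11 cells had 2 alveolar genes, and these had 20.3 CPM of Inmt with 1037 CPM of Acta2, the smooth muscle actin gene. A further 65 cells failed only by having more than 1 adventitial gene, 43 of them with exactly 2. They carried Inmt at 3723 CPM and Dpt in 90.8% of cells, and at a median of 7175 UMIs they were deeper than the members, whose median was 2313.5. Another 75 cells failed only by Ptprc or Cdh5, 94.7% of them by Cdh5, and had a median of 11845 UMIs. The 84 cells that failed only on collagen carried the surfactant gene Sftpc at 124248 CPM, the pattern of alveolar type 2 epithelial cells.

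Among the 76 cells, the number of alveolar genes detected rose with the UMIs of the cell (Spearman rho of 0.448). For the number of adventitial genes rho was 0.103. The rule itself bounds both counts, to at least 3 alveolar genes and at most 1 adventitial gene. Neither rho therefore measures how detection depends on depth apart from the choice of cells. The cells share 4 libraries, and no test was made. Since cells beyond the adventitial limit were deeper than members, the summed levels of several lists below are also given for the 141 cells without that limit.

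**Figure D1:**
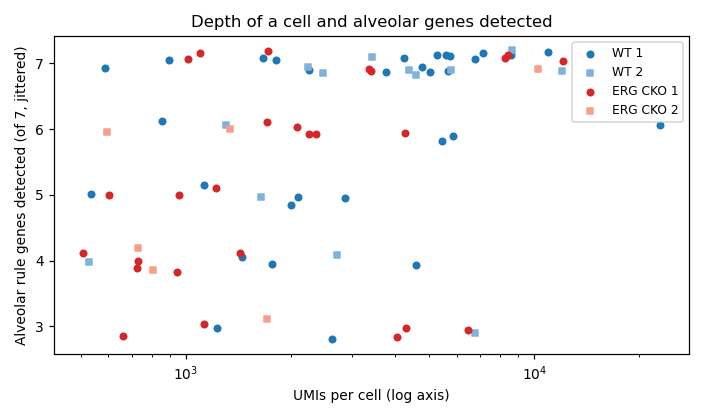
UMIs per cell (x axis, log scale) against the number of the 7 alveolar rule genes detected (y axis, jittered) for each of the 76 alveolar fibroblasts, with 1 marker per library. The 34 cells with all 7 genes lie mainly among the deeper cells (rho of 0.448 over all cells), and the deepest cell of WT replicate 1 has 23022 UMIs.

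Beyond the rule genes, the most abundant gene that set the cells apart was Gsn, which encodes the actin-severing protein gelsolin. It was at 14877 CPM, against 8944 CPM in adventitial fibroblasts and 654 CPM in mural cells. Mgp, the gene of matrix Gla protein, an inhibitor of calcification, was at 14489 CPM and at 28970 CPM in adventitial fibroblasts. Fmo2, a flavin-containing monooxygenase of lung, was at 4494 CPM and the secreted glutathione peroxidase gene Gpx3 at 3857 CPM. Among genes with at least 30 UMIs, the largest ratio to the remaining cells of the lung, after adding 10 CPM to both levels, belonged to Sod3, the extracellular superoxide dismutase, at 1275 CPM against 31.5 CPM. Dpep1, Mfap4 and Plxdc2 followed, at 856, 2818 and 1268 CPM. Mfap4, a microfibril-associated glycoprotein gene, had no UMI in the mural cells and was at 241 CPM in adventitial fibroblasts. Cdh11, which encodes a mesenchymal cadherin, was at 553 CPM.

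Several genes were high in alveolar and low in adventitial fibroblasts. Aldh1a1, which makes retinoic acid from retinal, was at 1550 CPM against 45.2 CPM. Fn1, the fibronectin gene, was at 1190 against 30.1 CPM, and the glutathione transferase gene Gsta3 at 814 against 15.1 CPM. Scn3a, a sodium channel gene, was at 423 CPM and had no UMI in adventitial fibroblasts. Wnt2, a ligand for epithelial progenitors, was at 151 CPM, again with no UMI in adventitial fibroblasts. In the opposite direction, the proteoglycan gene Dcn was at 261 CPM in alveolar and 3704 CPM in adventitial fibroblasts. Immediate early genes were also lower than in adventitial fibroblasts: Junb was at 1113 against 7935 CPM, Fos at 1659 against 8041 CPM and Egr1 at 1035 against 6987 CPM. With 15 adventitial fibroblasts in 3 libraries, these are levels of few cells, which also carried ductal myofibroblast markers at 8282 CPM.

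**Figure D2:**
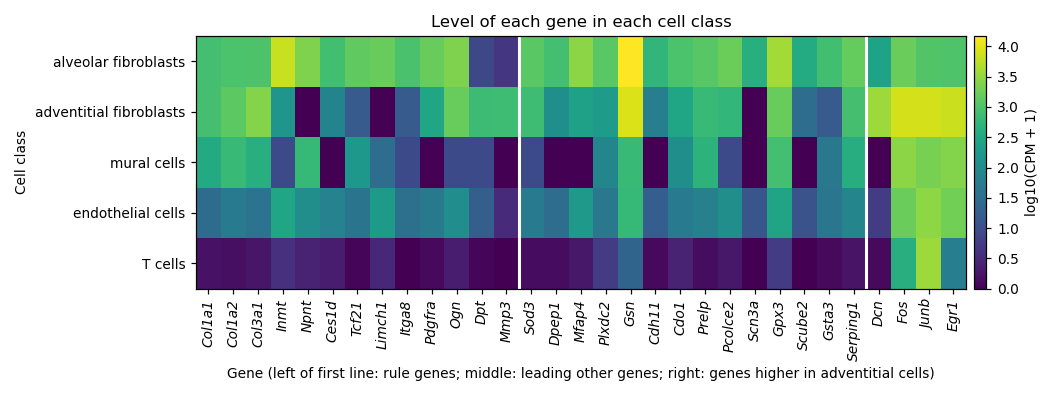
Level of each gene as log10(CPM + 1) (colour) in the summed cells of 5 classes (rows): 76 alveolar fibroblasts, 15 adventitial fibroblasts, 47 mural cells, 3093 endothelial cells and 1554 T cells. The first block holds rule genes, the second the leading genes outside the rule, such as Sod3, at 1275 CPM in alveolar fibroblasts and 31.5 CPM in all other cells, and the last Dcn, Fos, Junb and Egr1, which are higher in adventitial fibroblasts.

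Some members carried RNA of other cell types. At least 3 markers of 1 other type were detected in 25 of the 76 cells, with 10 cells for endothelial markers, 7 for leukocyte, 6 each for mural, alveolar type 1 and alveolar type 2, and 5 for platelet markers. The 51 cells with none of these numbered 20, 12, 17 and 2 in WT replicates 1 and 2 and ERG CKO replicates 1 and 2. Alveolar type 1 markers summed to 8260, 142, 211 and 711 CPM in these libraries. Most of the first value came from 1 WT cell with 461 UMIs of Ager and 423 of Hopx. Mural markers summed to 338, 1699, 4935 and 129 CPM, with overlap between the groups. The 5 platelet markers summed to 7.34, 0, 290 and 3363 CPM, and the 5 erythroid markers to 14.7, 35.4, 251 and 323 CPM. Platelet and erythroid RNA was thus higher in both ERG CKO libraries than in both WT libraries. In ERG CKO replicate 2, the 3 cells with platelet markers held 80.4% of the UMIs, and the 2 cells with alveolar type 1 markers held 77.6%. Values of that library without its cells with platelet markers therefore rest on few UMIs.

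The first comparison was of the number of alveolar fibroblasts. They made up 1.37% of cells in WT replicate 1 (95% Wilson interval 0.966 to 1.94), 0.605% in WT replicate 2 (0.354 to 1.03), 0.840% in ERG CKO replicate 1 (0.574 to 1.23) and 0.324% in ERG CKO replicate 2 (0.149 to 0.705). The groups overlapped. Mean shares were 0.987% ± 0.541 (SD, n = 2) in WT and 0.582% ± 0.365 (SD, n = 2) in ERG CKO, a difference of -0.405 percentage points with p = 0.667 in a two-sided exact permutation test over libraries. With 2 libraries against 2 this test cannot go below 0.333. The intervals cover counting error only, and in a whole-lung digest fewer fibroblasts and fewer fibroblasts released from the tissue cannot be told apart.

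Among gated fibroblasts, alveolar cells were 83.8% and 81.3% of the WT libraries' fibroblasts and 81.3% and 100% of those of the ERG CKO libraries, with 6, 3, 6 and 0 adventitial fibroblasts beside them. The mean difference of 8.11 percentage points (p = 1, exact permutation test) came from ERG CKO replicate 2, which had 6 alveolar and no adventitial fibroblasts. Without that library the difference was -1.27 percentage points. Cells with at least 3 alveolar genes that failed only the adventitial limit counted in neither class. These 65 cells (WT: 28, 16; ERG CKO: 18, 3) outnumbered the 15 adventitial fibroblasts, and the shares above leave them out. A share with them on the adventitial side was not computed.

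The depth of the cells did differ in order. The median alveolar fibroblast had 3769 and 3424 UMIs in WT and 1716.5 and 1072.5 UMIs in ERG CKO, so both WT libraries lay above both ERG CKO libraries (p = 0.333, the smallest the exact test allows). Mural cells had the same order, with medians of 2571.5 and 2697 UMIs in WT and 1914 and 1941.5 in ERG CKO. T cells did not: their medians were 6107, 6226, 6021 and 6507.5 UMIs. In ECs the order was opposite, at 4165.5 and 3926 against 4829 and 4339 UMIs. Less RNA in these cells and less RNA captured from them cannot be told apart, and the lower depth moves with each difference between the groups given below. Its part in them was not tested.

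**Figure D3:**
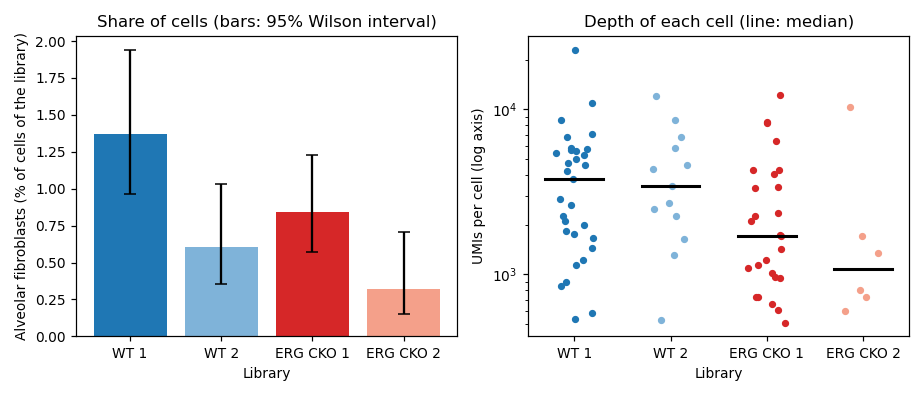
Left, alveolar fibroblasts as percent of the cells of each library, with 95% Wilson intervals; right, UMIs of each alveolar fibroblast (log axis) with the median of each library as a line. Shares overlap between the groups, with WT libraries at 1.37% and 0.605% and ERG CKO libraries at 0.840% and 0.324%, while both WT medians of UMIs lie above both ERG CKO medians.

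To ask which genes of alveolar fibroblasts differed between WT and ERG CKO, counts were summed over the cells of each library and tested with edgeR's quasi-likelihood test, with p adjusted by Benjamini-Hochberg over all 1161 genes that passed the filter on low counts. The 16 rule genes were left out. At an adjusted p of at most 0.05 no gene was called higher and none lower (0 of 1161, 0%); 96 genes (8.27%) had an unadjusted p under 0.05, 48 of them higher and 48 lower in ERG CKO. The smallest adjusted p was 0.297. DESeq2 on the same counts called 1 gene, Nrgn. The libraries of the groups did not overlap in 37.5% of all genes tested, with both ERG CKO libraries above both WT libraries in 17.1% and below in 20.3%; these shares are the background for every list below. The median log2 fold change was -0.03, with 551 positive and 610 negative fitted folds. The p-values measure the spread between 2 mice of each group, and they come from 2 ERG CKO libraries of unequal depth. The count of called genes turned on single libraries: 7 genes were called when WT replicate 1 was left out, 55 when WT replicate 2 was, 11 when ERG CKO replicate 1 was and 0 when ERG CKO replicate 2 was, each with 1 lone library assumed to vary like the other group.

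The 10 genes of smallest p are therefore given as values and not as calls. Mgp had 9274 and 11435 CPM in WT and 22695 and 31365 CPM in ERG CKO, a log2 fold change of 1.38 (SE 0.22, adjusted p = 0.297), and it was detected in 73 of the 76 cells. Mgp was called in 6 of 22 settings, among them those without WT replicate 1 or WT replicate 2, and its log2 fold change ranged from 0.55 to 1.68 over them. Tmem176b, a transmembrane protein gene, had 653 and 1027 CPM in WT against 1966 and 3428 CPM in ERG CKO (log2 fold change 1.66, SE 0.34). B2m, the light chain of class I MHC molecules, was at 639 and 743 CPM in WT and 1557 and 1746 CPM in ERG CKO (1.26, SE 0.27). In all 3 genes both ERG CKO libraries lay above both WT libraries. The complement gene C4b (chr17:34728139-34743902, GRCm38) had 132 and 195 CPM in WT and 620 and 1552 CPM in ERG CKO (2.63, SE 0.51). Wisp2, also called Ccn5, a secreted matricellular protein gene, had 132 and 88.5 CPM in WT and 567 and 453 CPM in ERG CKO (2.17, SE 0.43). Mbd1, a methyl-CpG-binding protein gene, and Ctla2a, a cathepsin inhibitor gene, had log2 fold changes of 3.18 (SE 0.57) and 2.80 (SE 0.59) on 38 and 97 UMIs in all.

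Nrgn, the gene of the calmodulin-binding protein neurogranin, which platelets also carry, had 2 and 0 UMIs in WT and 19 and 15 UMIs in ERG CKO, in 11 cells. The platelet markers Pf4 and Ppbp had no UMI in WT members, 11 and 8 UMIs in ERG CKO replicate 1 and 28 and 11 in replicate 2. Without the 5 members with platelet markers, Nrgn no longer passed the filter on low counts. That setting also took out 80.4% of the UMIs of ERG CKO replicate 2, so it cannot tell which cells the Nrgn UMIs came from. The lower genes among the 10 were both immediate early genes. Junb (chr8:84976909-84978748) was at 1535 and 1310 CPM in WT and 369 and 323 CPM in ERG CKO (log2 fold change -1.99, SE 0.33), and Ier2 (chr8:84661331-84662852) at 374 and 779 CPM against 66.0 and 64.7 CPM (-3.01, SE 0.58). Of the 10 genes, Mgp, Ier2 and Nrgn were called without WT replicate 1, all but Ier2, Wisp2 and B2m without WT replicate 2, and C4b, Ctla2a and Nrgn without ERG CKO replicate 1.

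**Figure D4:**
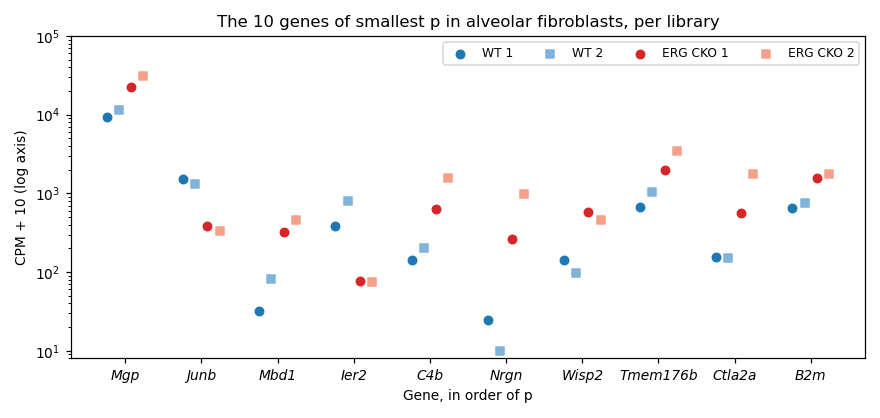
CPM + 10 (log axis) of the 10 genes of smallest p in the alveolar fibroblasts of each library, in order of p. For every gene the WT and ERG CKO libraries lie apart, with Junb and Ier2 lower in ERG CKO, and no gene passes the adjusted p of 0.05 (smallest 0.297).

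Immediate early genes encode transcription factors and signal inhibitors that cells transcribe within minutes of a stimulus, and heat shock genes were listed with them. Of the 33 listed genes 19 were tested, none was called, and all 19 had a negative fitted log2 fold change, as 52.5% of all genes tested did. By group means 18 of the 19 were lower in ERG CKO, the exception being Hspb1. Their median log2 fold change was -1.34, and for 15 of the 19 both ERG CKO libraries lay below both WT libraries, against 20.3% of all genes. The summed level of the list was 21322 and 16516 CPM in WT and 9118 and 6855 CPM in ERG CKO. The groups did not overlap, and the log2 ratio of the means was -1.24. Dusp1, a phosphatase that ends MAP kinase signalling, was at 2056 and 1894 CPM in WT and 1016 and 259 CPM in ERG CKO (log2 fold change -1.40, SE 0.52, adjusted p = 0.587). Fos, a subunit of the AP-1 factor, was at 2364 and 1487 CPM against 792 and 323 CPM (-1.63, SE 0.48, adjusted p = 0.473). Both genes were called when WT replicate 2 was left out, and Dusp1 also when ERG CKO replicate 1 was.

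Wider and narrower sets of cells had the same order. Without the limit on adventitial genes the list summed to 25660 and 26213 CPM in 59 and 29 WT cells and to 15294 and 14302 CPM in 44 and 9 ERG CKO cells, a log2 ratio of -0.81. The ratio was -1.25 in cells of at least 1000 UMIs, -1.33 without members with platelet markers and -0.98 without those with mural or alveolar type 1 markers. In each of these the groups did not overlap. Mural cells of the same libraries had a log2 ratio of -1.27, also without overlap, and ECs one of -0.24, again without overlap. In T cells the sums of 13136, 14328, 12683 and 14624 CPM overlapped, with a log2 ratio of -0.01. Median UMIs per cell were lower in ERG CKO in alveolar fibroblasts and mural cells and higher in ECs; the part of depth in this list was not tested.

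**Figure D5:**
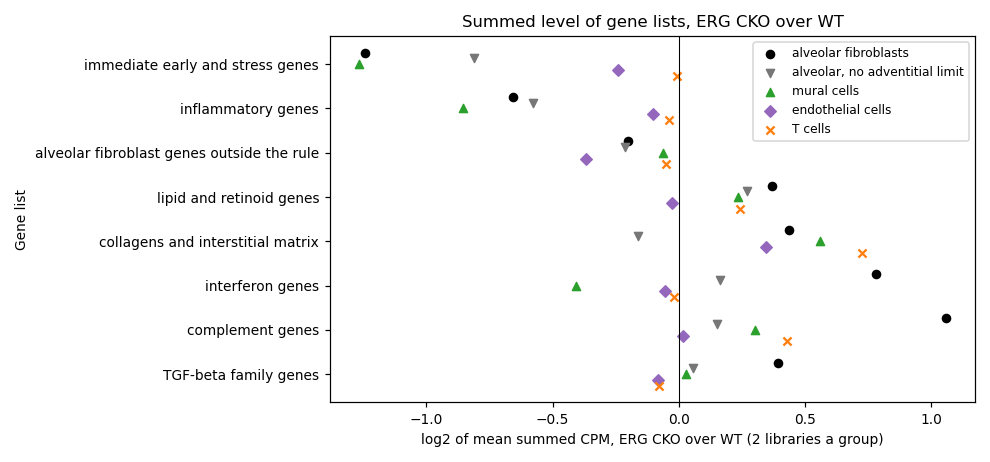
Log2 of the mean summed CPM of gene lists (rows), ERG CKO over WT, in alveolar fibroblasts, in the same cells without the limit on adventitial genes, and in mural cells, endothelial cells and T cells; each point compares 2 libraries with 2. The immediate early and stress list is at -1.24 in alveolar fibroblasts, -0.81 without the limit and -1.27 in mural cells, while the complement and interferon lists are at 0.15 and 0.16 without the limit.

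Of 35 listed inflammatory genes, 5 were tested and none was called. Fitted folds were negative for 4 and positive for 1, with 1 gene without overlap in each direction. The list summed to 4126 and 3611 CPM in WT and 2454 and 2457 CPM in ERG CKO. Cebpb, a transcription factor of the acute phase response, was at 1373 and 1133 CPM in WT and 369 and 776 CPM in ERG CKO (log2 fold change -1.30, SE 0.41, adjusted p = 0.514). Cxcl14, a chemokine gene typical of alveolar fibroblasts, was at 705 and 354 CPM against 594 and 129 CPM, with overlap.

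Complement genes, which many fibroblasts express, lay on the other side. Of 13 listed, 7 were tested and none was called. In 6 the level was higher in both ERG CKO libraries and in 1 lower, where 17.1% and 20.3% of all genes were; the median log2 fold change was 0.88. The list summed to 3590 and 3948 CPM in WT and 5542 and 10153 CPM in ERG CKO. C3, the central component, was at 433 and 460 CPM in WT and 686 and 2716 CPM in ERG CKO (log2 fold change 1.77, SE 0.61, adjusted p = 0.566). With 1 library left out its fold ranged from 0.73 to 2.38, and C3 was called without WT replicate 2 or without ERG CKO replicate 1. Serping1, the inhibitor of the first component, was at 1204 and 1381 CPM against 2006 and 2846 CPM (0.88, SE 0.26, adjusted p = 0.473). Without the limit on adventitial genes the list had 6555 and 6130 CPM in WT and 8465 and 5624 CPM in ERG CKO, so the groups then overlapped and the log2 ratio was 0.15 in place of 1.06. Without the members with platelet markers it was 0.47. T cells, with 57.2, 61.7, 78.5 and 81.8 CPM of the list, had the same order at a far lower level.

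Of 37 listed interferon-response and class I MHC genes, 11 were tested and none was called. All 11 had a positive fitted log2 fold change, with a median of 0.82. In 7 of them both ERG CKO libraries lay above both WT libraries, where 17.1% of all genes tested did. Ifitm3, an antiviral membrane protein gene, was at 1101 and 1806 CPM in WT and 1689 and 3234 CPM in ERG CKO, with overlap (log2 fold change 0.72, SE 0.37). Ifitm2 was at 918 and 1381 against 976 and 1681 CPM, again with overlap (0.16, SE 0.34). The list summed to 5198, 7081, 8563 and 12546 CPM in the 4 libraries. Without the adventitial limit the sums were 6509, 6690, 8722 and 6069 CPM, which overlapped, with a log2 ratio of 0.16 in place of 0.78. With at most 2 adventitial genes the interferon list also overlapped (0.16), while the complement list did not (0.59).

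Matrix genes were next. Of 37 listed collagens and interstitial matrix genes 18 were tested and none was called, with 14 positive and 4 negative fitted folds. The groups did not overlap in 8 of the 14 and in 1 of the 4. Of all genes tested, 17.1% lay higher and 20.3% lower in both ERG CKO libraries. The median log2 fold change of the list was 0.57. Bgn, the gene of the proteoglycan biglycan, was at 1322 and 1540 CPM in WT and 2652 and 3104 CPM in ERG CKO (1.004, SE 0.23, adjusted p = 0.297). Mfap4 was at 2474 and 3894 CPM against 2679 and 2587 CPM and overlapped. The list summed to 12570 and 13011 CPM in WT and 16309 and 18302 CPM in ERG CKO. This order did not hold without the adventitial limit, where sums of 16688, 19268, 21156 and 11005 CPM gave a log2 ratio of -0.16. Without members with platelet markers the groups overlapped as well, since ERG CKO replicate 2 was then at 11544 CPM. Mural cells had a log2 ratio of 0.56 for the list, without overlap, and T cells one of 0.73, with overlap and at 13.1, 13.8, 36.0 and 8.55 CPM. Of the 7 basement membrane genes tested, all had a positive fitted fold, 2 of them without overlap, and none was called. Col4a1 was at 536 and 407 CPM in WT and 976 and 582 CPM in ERG CKO, and Col4a2 at 360 and 389 against 528 and 388 CPM, the latter with overlap.

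Myofibroblasts are contractile fibroblasts of scars and growing septa. The study named Tnc, Ltbp2, Tagln and Acta2 as myofibroblast genes from these same libraries, so they are not independent evidence of a direction. Acta2, the defining gene, had 1 and 0 UMIs in WT and 8 and 0 UMIs in ERG CKO alveolar fibroblasts. Those counts are at or under the floor of 3 UMIs in 3 of the 4 libraries, which corresponds to 22.0, 53.1, 39.6 and 194 CPM, and no fold is given. Tnc, a matrix glycoprotein of scars, had 2 and 7 UMIs in WT and 6 and 0 UMIs in ERG CKO. Neither gene separated the groups. Ltbp2, which encodes a binding protein of elastic fibres, had 8 UMIs in 1 cell and 4 UMIs in 1 cell in WT, 34 UMIs in 6 of 26 cells in ERG CKO replicate 1 and 2 UMIs in 1 cell of replicate 2. The 4 genes summed to 220 and 779 CPM in WT and 1227 and 905 CPM in ERG CKO, without overlap (log2 ratio 1.09). Their sums overlapped without the adventitial limit (0.94), with at most 2 adventitial genes (0.78) and with at least 2 alveolar genes (0.98). Tagln, the actin-binding protein transgelin, was the only one of the 4 to pass the filter. It was at 140 and 584 CPM in WT and 594 and 776 CPM in ERG CKO (log2 fold change 1.02, adjusted p = 0.733), and 28 of the 33 UMIs of WT replicate 2 came from 1 cell. Its fold ranged from 0.27 to 2.17 with 1 library left out, and it was called without WT replicate 2 (edgeR adjusted p = 0.0401). Tagln had a UMI in 35.5% and 30.8% of WT cells and in 69.2% and 66.7% of ERG CKO cells, the latter at lower depth per cell; T cells stood at 1.44 CPM.

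The wider list of 29 myofibroblast and fibrosis genes had 12 tested and none called, and its sums of 6337, 8214, 12192 and 7308 CPM overlapped. Fn1 was at 786 and 974 CPM in WT and 1953 and 1811 CPM in ERG CKO (log2 fold change 1.12, SE 0.27, adjusted p = 0.303), in 61 of the 76 cells. Vim, the intermediate filament gene, was at 1432 and 1664 CPM against 1333 and 1099 CPM (-0.30, SE 0.27). The 9 markers of ductal myofibroblasts summed to 73.4, 35.4, 198 and 0 CPM.

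Of the 22 genes that mark the cells outside the rule, 21 were tested and none was called. Fitted folds were negative for 14 and positive for 7, from -1.92 to 0.43, with a median log2 fold change of -0.24. In 6 of the 14 both ERG CKO libraries lay below both WT libraries, where 20.3% of all genes tested did. Their sums were 21998 and 23579 CPM in WT and 20320 and 19336 CPM in ERG CKO, without overlap, a log2 ratio of -0.20. The ratio was -0.44 without the deepest cell of each library. Without the adventitial limit the sums overlapped, at 19915 and 16232 CPM in WT and 17560 and 13655 CPM in ERG CKO (-0.21). They also overlapped with at most 2 adventitial genes (-0.25) and with at least 4 alveolar genes (-0.096). Fmo2 was at 4809 and 4549 CPM in WT and 3879 and 4527 CPM in ERG CKO, and Macf1, a cytoskeletal linker gene, at 4567 and 4071 against 4249 and 4527 CPM. Their log2 fold changes were -0.17 (SE 0.22) and 0.01 (SE 0.23). Wnt2, named here after its values were seen, had 26 and 11 UMIs in WT and 4 and 2 UMIs in ERG CKO (log2 fold change -1.46, SE 0.57, adjusted p = 0.588).

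Lipid and retinoid genes serve the storage and use of vitamin A and triglyceride. Of 20 listed, 5 were tested and none was called, and Pparg had 2 UMIs in all. The list summed to 3458 and 3434 CPM in WT and 3919 and 4980 CPM in ERG CKO, without overlap, and to 3196, 3106, 3349 and 4248 CPM without the adventitial limit. The groups overlapped with at most 2 adventitial genes (log2 ratio 0.20) and without the deepest cell of each library (0.22). ECs carried the list at 3832 CPM, against 3659 CPM in alveolar fibroblasts. Aldh1a1 was at 1601 and 1080 CPM in WT and 1755 and 1811 CPM in ERG CKO (log2 fold change 0.39, SE 0.32). Aldh2, a mitochondrial aldehyde dehydrogenase gene, overlapped at 977 and 1257 against 1148 and 1617 CPM. Of 15 tested antioxidant and detoxifying genes 7 had positive and 8 negative fitted folds, and Gpx3 was at 2952 and 4355 CPM in WT against 4499 and 6855 CPM in ERG CKO (0.63, SE 0.27, adjusted p = 0.601).

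Few genes for signals from these cells to epithelium and vessels passed the filter on low counts. Of 25 listed ligands of the epithelial niche 6 were tested and none was called, and the list overlapped at 1322, 1505, 1887 and 1164 CPM. Fgf7, a growth factor for alveolar type 2 cells, had 125 and 159 CPM in WT and 92.4 and 388 CPM in ERG CKO, and Gas6, a ligand of TAM receptors, had 228 and 53.1 against 330 and 129 CPM. Of 29 vascular ligands and guidance genes 9 were tested, and the sums of 4890, 4372, 4605 and 3945 CPM overlapped. Thbs1, the antiangiogenic thrombospondin gene, was at 404 and 1381 CPM in WT and 752 and 194 CPM in ERG CKO. Nrp1, a co-receptor of VEGF, was at 507 and 460 against 765 and 711 CPM (log2 fold change 0.62, SE 0.32, adjusted p = 0.668). Vegfa (chr17:46016993-46032377), named here after its values were seen, had 157 and 18 UMIs in WT and 3 and 1 UMIs in ERG CKO (-4.04, SE 0.94, adjusted p = 0.297). One cell of WT replicate 1, the deepest of all members, held 131 of its 179 UMIs, and this was the cell with Ager and Hopx. Vegfa was called without WT replicate 2.

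Of the TGF-beta family, through which fibroblasts are activated, 8 of 27 genes were tested and none was called, with 6 positive and 2 negative fitted folds. Ltbp4, which anchors latent TGF-beta to matrix, was at 888 and 779 CPM in WT and 1135 and 1423 CPM in ERG CKO (log2 fold change 0.58, SE 0.29). Id3, a target of BMP signals, was at 676 and 1168 against 488 and 711 CPM (-0.65, SE 0.37). Of the IGF binding proteins, Igfbp7 was at 1314 and 1098 CPM in WT and 2045 and 2716 CPM in ERG CKO (0.94, SE 0.28, adjusted p = 0.473), and Igfbp3 at 558 and 407 CPM against 317 and 0 CPM, where a count of 0 allows up to 194 CPM. Of 26 proteases and inhibitors 9 were tested, 8 of them with a positive fitted fold, and Timp3, the matrix-bound inhibitor of metalloproteinases, overlapped at 1821 and 708 against 2283 and 1035 CPM. Of 31 growth factor receptors 6 were tested, with 4 positive and 2 negative fitted folds and none called. All 11 mitochondrial transcripts tested had positive fitted folds, with a median log2 fold change of 0.24, and 12 of 16 ribosomal protein genes had negative ones, with a median of -0.32; none was called.

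The last comparison asked whether the difference between WT and ERG CKO was another in alveolar than in adventitial fibroblasts of the same mice. It rested on 7 sums, since ERG CKO replicate 2 had no adventitial fibroblast, and left 1 residual degree of freedom among mice. ERG CKO adventitial fibroblasts were thus 1 library of 6 cells, and the fit cannot measure their spread between ERG CKO mice. The genes are therefore given by effect size. Of 838 genes 4 (0.477%) were called by edgeR with the mouse as a block. Aspn, a small proteoglycan gene, had 0, 0, 6 and 0 UMIs in alveolar fibroblasts and 114, 21 and 18 UMIs in adventitial fibroblasts of WT replicates 1 and 2 and ERG CKO replicate 1. The difference of the log2 effects was 7.39 (SE 1.55), with a fitted size that depends on the zeros. Timp3 was at 6091 and 3440 CPM in WT and 1025 CPM in ERG CKO adventitial fibroblasts (difference 3.34, SE 0.74). Ctgf, the connective tissue growth factor gene, was at 1595, 64.9 and 85.4 CPM there and at 888, 726, 1359 and 0 CPM in alveolar fibroblasts (4.04, SE 1.09). Igfbp3, a binding protein of insulin-like growth factors, was at 870 and 519 CPM in WT and 4013 CPM in ERG CKO adventitial fibroblasts (-2.91, SE 0.78). In each of the 4 genes the larger spread lay in the adventitial cells. Those few cells also carried ductal myofibroblast markers at 8282 CPM, against 95.1 CPM in alveolar fibroblasts. Without ERG CKO replicate 2 the number called was 8. None of the 4 was called without the mouse block, with the rule at 4 alveolar genes, or after each gene's top cell was removed.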

How the data were processed

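The authors dissociated whole lungs of 4 mice, captured cells on the 10x Genomics platform and counted reads with Cell Ranger 3.1.0 on build mm10 (submitters' processing notes). The deposited values are raw UMI counts of 20076 genes in 9363 cells, at least 500 UMIs and 300 genes per cell; the study kept fewer cells after a quality filter whose limits are not given in the sources used here, so all were used. Cell classes were rebuilt from gene gates: adventitial fibroblasts had the same collagen, Ptprc and Cdh5 limits with at least 2 of the 4 adventitial and at most 2 of the 7 alveolar genes, mural cells at least 3 of 7 mural markers, T cells at least 2 of 4 markers. The 66 Scrublet doublets (0.705%) were kept. Members, lists and tests were chosen with earlier results of these data known.

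Counts were summed per library (1 mouse each) and tested with edgeR 4.0.16 in R 4.3.3 (TMM, filterByExpr; adjusted p of at most 0.05) without covariates, with DESeq2 1.42.0 as an alternative; scanpy 1.11.5 served for doublets. The fit was tested on simulated data. SE is the fold change over the root of F. Genes named were the 16 rule genes (levels only), the 10 of smallest p, the 2 most abundant tested genes of each list, the study's 4 myofibroblast genes, Erg and the called interaction genes; leading genes of the cells are given by level. Symbols with more than 1 row (13) were kept apart. Positions come from RefSeq on GRCm38, the build called mm10. At most 2 adventitial genes, no adventitial limit, cells of at least 1000 UMIs, and leaving out the deepest cells or members with other markers were settings chosen after the data were seen.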

Additional observations from a re-analysis of the deposited data

Results flagged for a closer look

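For Aspn, Timp3, Ctgf and Igfbp3 the fit gave another difference between WT and ERG CKO in alveolar than in adventitial fibroblasts. ERG CKO adventitial fibroblasts came from 1 library of 6 cells, so their spread between ERG CKO mice could not be measured. The differences of the log2 effects, alveolar minus adventitial, were 7.39 for Aspn, 3.34 for Timp3, 4.04 for Ctgf and -2.91 for Igfbp3. They rest on 15 adventitial fibroblasts of 3 libraries and 1 residual degree of freedom. Aspn had 6 UMIs in all alveolar fibroblasts, and Ctgf had 0 UMIs in those of ERG CKO replicate 2. In alveolar fibroblasts alone, log2 fold changes were 0.43 for Timp3 (SE 0.58), 0.06 for Ctgf (SE 0.93) and -1.09 for Igfbp3 (SE 0.74), with adjusted p of 0.899, 0.996 and 0.754 in edgeR's test. The part of the mix of cells in the adventitial gate in these values was not tested.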

How the results depend on the processing

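The share of alveolar fibroblasts among all cells was lower in ERG CKO in every setting run, with differences of -0.788 to -0.023 percentage points when 1 library was left out. Their share among gated fibroblasts ranged from -1.27 to 17.5 percentage points. The number of genes called by genotype, 0 as reported, was 1 by DESeq2, 34 with the low-count filter off, 9 with at least 2 alveolar genes, 6 without the highest cell of each gene, 3 in cells thinned to 1000 UMIs and 12 without the deepest cells, and ranged from 0 to 55 with 1 library left out. With the replicate number as a block it was 0; the number coincides with Xist or Ddx3y expression in both groups, but the labels do not say that it marks a shared litter or day, so the fit without the block was kept. The 4 interaction genes became 9 with DESeq2 size factors, 1 without the filter, 0 without the mouse block, 0 with at least 4 alveolar genes, 0 without the highest cells and 8 without ERG CKO replicate 2; leaving out any other library could not be fitted.

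The matrix sum turned to -0.16 without the adventitial limit. Of named genes, none of them called, log2 fold changes turned sign as follows. With 1 library left out, Macf1 ranged from -0.16 to 0.18, Mfap4 from -0.50 to 0.025, Timp3 from -0.57 to 1.39, Ifitm2 from -0.10 to 0.39, Thbs1 from -2.32 to 0.40, Cxcl14 from -2.30 to 0.40, Col4a2 from -0.17 to 0.61, Fgf7 from -0.48 to 1.24 and Gas6 from -0.50 to 2.40. With no filter Macf1 was -0.28, Aldh2 -0.016 and Ifitm2 -0.15, and with upper-quartile scaling Macf1 was -0.042. With at least 4 alveolar genes Fmo2 was 0.017 and Col4a2 -0.40, and with at least 2 Macf1 was -0.014 and Ifitm2 -0.035. Without the highest cells Macf1 was -0.20, Mfap4 0.16, Ifitm2 -0.090 and Thbs1 0.77. In thinned cells Vim was 0.10, Ltbp4 -0.29 and Thbs1 0.80. With at most 2 adventitial genes Ifitm3 was -0.047, Aldh2 -0.19, Ifitm2 -0.42 and Col4a2 -0.34, and with no limit Aldh2 was -0.18, Ifitm2 -0.31 and Col4a2 -0.36. Without the deepest cells Macf1 was -0.31, Mfap4 0.063, Ifitm2 -0.16 and Thbs1 0.92. Without members with mural or alveolar type 1 markers Macf1 was -0.063, Ifitm2 -0.10, Cxcl14 0.23 and Col4a2 -0.11, and without those with platelet markers Macf1 was -0.51, Mfap4 0.026, Ifitm2 -0.012 and Ltbp4 -0.014. The cause of these shifts was not tested. Depth limits all values of ERG CKO replicate 2, where 3 UMIs are 194 CPM.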
